A study of Mus musculus with 12 samples.

Results

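The 9 microglia marker genes Aif1, Tmem119, P2ry12, Csf1r, Itgam, Cd68, Trem2, Tyrobp and Ctss were followed in the cortex of MRL/lpr, Fn14ko and MRL/+ mice. The genes were taken by name: every spot of the array that is not a control and carries one of these gene names was used, whatever its signal. There were 14 such spots among 43020, 1 each for Aif1, Tmem119, P2ry12, Trem2, Tyrobp and Ctss, 2 for Cd68, and 3 each for Csf1r and Itgam. Of these, 13 passed the filter on dim and marked spots, so that all 9 genes were among the 17302 genes tested.

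Each group had 4 adult female mice of about 12 weeks, killed at diestrus. MRL/lpr mice carry the lpr mutation of Fas on the MRL background and develop a lupus-like disease. Fn14ko mice are MRL/lpr mice that also lack Fn14 (Tnfrsf12a), the receptor of the cytokine TWEAK. They were littermates of the MRL/lpr mice from a backcross. MRL/+ mice (MRL/MpJ) share the MRL background without the lpr mutation and came from another breeder, so that source and genotype cannot be told apart. Cortical total RNA was labelled mouse by mouse for 2-colour Agilent arrays. Replicates 1 and 3 carried Cy3, replicates 2 and 4 carried Cy5, a Cy3 and a Cy5 mouse of 1 group shared an array, and both arrays of a group lay on 1 slide that held no other group. Slide and group therefore cannot be told apart either. In whole cortex, fewer microglia and less RNA per microglial cell cannot be told apart.

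Microglia are the resident macrophages of the brain. They depend on the receptor CSF1R for their survival, and they sense their surroundings through surface receptors such as P2RY12 and TREM2, the latter coupled to the adaptor TYROBP. Under inflammation they raise genes of phagocytosis and lysosomal degradation, such as Cd68 and Ctss, and lower homeostatic genes such as Tmem119 and P2ry12. Aif1 (IBA1, an actin-bundling protein) and Itgam (CD11b, an integrin chain of the complement receptor) are the usual stains for these cells, and Itgam, Cd68, Tyrobp and Ctss are also used by other myeloid cells.

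The results turned on the probes of Aif1, Trem2, Cd68 and Itgam. The bases at the 5′ end of each of these probes, 30 of the 60 that the array design lists, are shown so that the probes of 1 gene can be told apart. Capitals mark an unbroken run of the dinucleotide CA.
Aif1 A_51_P400543: gagcttctgatgacagcagcatggaaaaaa
Trem2 A_55_P1962937: acagctggatggttgtctgtcaacttctgc
Cd68 A_55_P1961943: gcctcatctcttcaccatgccactgactca
Cd68 A_55_P2067583: ccgaatcctatacccaattcagggtggaag
Itgam A_55_P1977926: tgttaaccagacaggtgccctctaccagtg
Itgam A_55_P1977929: aagttcacaatcctgtaccactcattgtgg
Itgam A_55_P1977934: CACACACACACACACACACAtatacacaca

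The array design places the whole probes on the mouse build mm9. The Aif1 probe lies at chr17:35307959-35308018 on the minus strand and the Trem2 probe at chr17:48491537-48491596 on the plus strand. The Cd68 probes lie on the minus strand, A_55_P1961943 at chr11:69477775-69477834 and A_55_P2067583 at chr11:69478979-69479038. The Itgam probes follow each other on the plus strand, A_55_P1977926 at chr7:135212140-135212199, A_55_P1977929 at chr7:135260275-135260334 and A_55_P1977934 at chr7:135261755-135261814. The exons of that build were not analysed here. The Itgam probe A_55_P1977934 begins with a CA run of 20 bases, and 23 other spots, or 0.0535% of the 43020, hold a stretch of 20 bases in common with it. None of the other 13 probes shares 20 bases in a row with any other spot.

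A signal is given here as a multiple of the median retained spot of the same mouse, after background correction. It can be compared between mice for 1 probe, but not between probes. The channels differed in how far a dark spot stood off the background. The 153 dark control spots, to which no mouse RNA should bind, had a median signal of 0.046 to 0.338 in 10 mice, but of 0.663 and 0.823 in MRL/+ replicates 2 and 4, the Cy5 mice of that group. Only 35% and 21.2% of spots were called well above background in these 2 mice, against at least 56.6% in each of the other 10. By its probe, Tnfrsf12a, the gene deleted in Fn14ko, was at 0.604 to 0.777 in the 4 Fn14ko mice, 1.38 to 1.90 in MRL/lpr and 0.943 to 1.28 in MRL/+, and lower in Fn14ko than in MRL/lpr (adjusted p = 0.00351). In Fn14ko against MRL/+ its log2 fold change was -0.67 (adjusted p = 0.108 by limma). The probe was called well above background in all 4 Fn14ko mice. Whether the probe lies in the deleted part was not analysed here. The values without MRL/+ replicates 2 and 4 are given beside the results they bear on most. All 6 neuron genes examined, among them Snap25 and Slc17a7, were well above background in every mouse, as were Tmem119, Csf1r, Itgam and Tyrobp among the 9 markers. For Csf1r and Itgam this held by only 1 probe each, which for Itgam was the probe with the CA run.

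**Figure D1:**
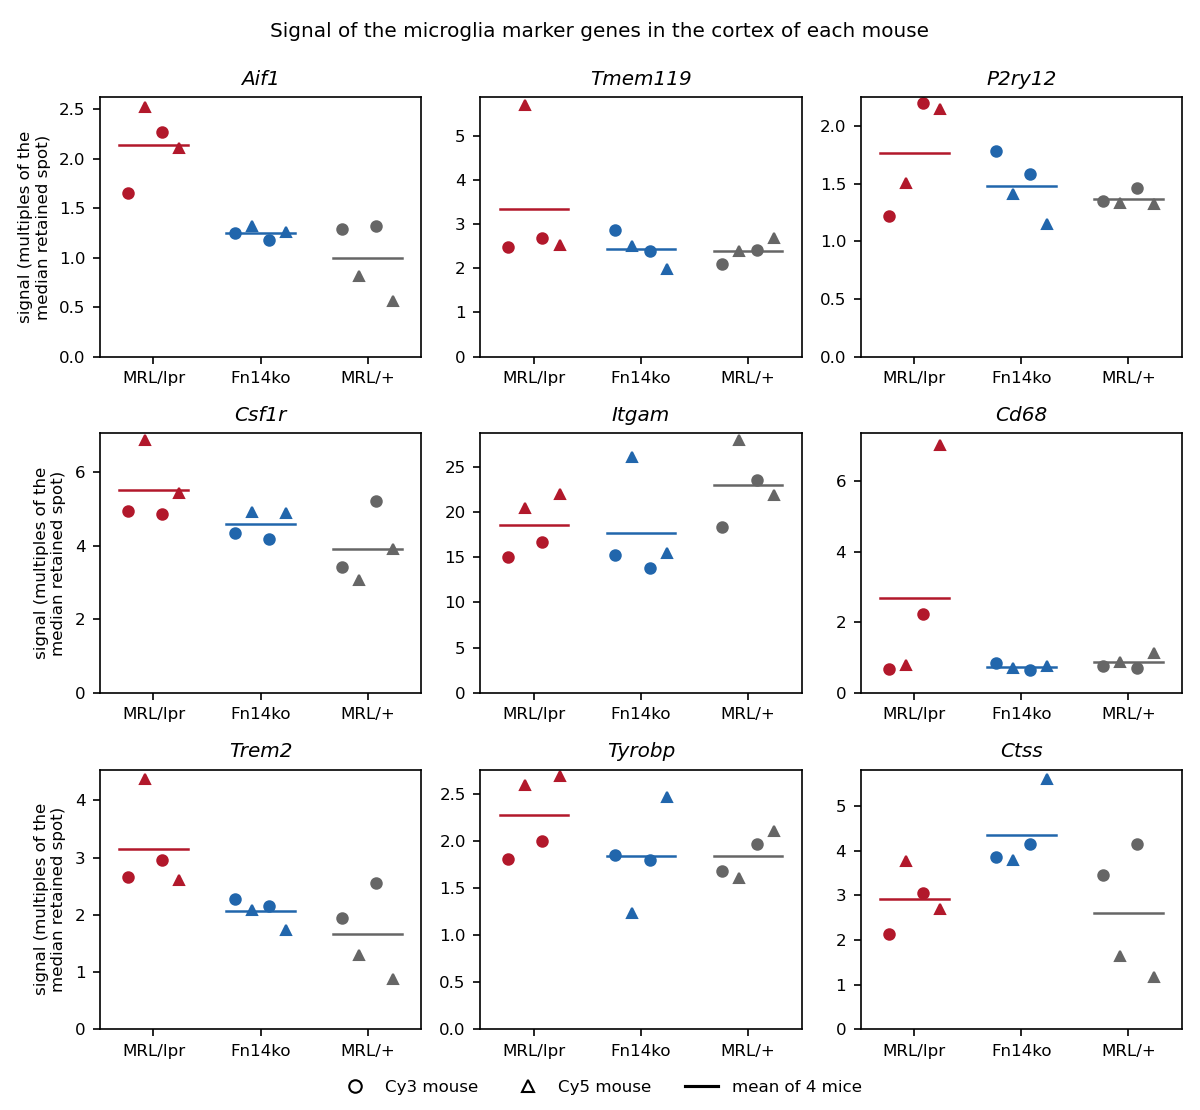
Signal of each microglia marker gene in the cortex of each mouse, in multiples of the median retained spot of that mouse, with the spots of a gene averaged (linear axes from 0). Circles are Cy3 mice, triangles are Cy5 mice and lines are means of 4 mice; the 4 MRL/lpr mice lie above all other mice for Aif1, at 1.66 to 2.52, and 2 of the 4 carry the high Cd68 signals.

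Of the 9 markers, 1 was higher in MRL/lpr than in MRL/+ past the limma threshold (adjusted p under 0.05) and none was lower. This was Aif1. Over all genes, 14.4% passed in that comparison, 6.03% as higher and 8.37% as lower, so that a share of 1 in 9 is near the background. In Fn14ko against MRL/+, none of the 9 passed, where 0.954% of all genes did, and the lowest adjusted p was 0.251. Nor did any of the 9 pass in MRL/lpr against Fn14ko, where 4.57% of all genes did, and the lowest adjusted p was 0.21. At an unadjusted p under 0.05, limma gave 3 markers in the first comparison, 0 in the second and 1 in the third, where 34.7%, 21.9% and 18.6% of all genes were under it. The methods' t-test called 0 of the 9 in each comparison after Benjamini-Hochberg adjustment.

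The log2 fold changes of the markers lay mostly above 0 where MRL/lpr was the group of interest. In MRL/lpr against MRL/+, 8 of 9 were above 0, with a median of 0.39 and a range from -0.31 to 1.17, while 43.4% of all genes were above 0 and their median was -0.10. Against Fn14ko, 8 of 9 were above 0 in MRL/lpr, with a median of 0.33, beside a median of -0.07 over all genes. In Fn14ko against MRL/+, 6 of 9 were above 0, with a median of 0.10, beside a median of -0.10 over all genes. By single probe, 8, 9 and 7 of the 13 retained probes were above 0 in these comparisons, in the same order. Without the MRL/+ Cy5 mice, 7, 8 and 3 of the 9 markers were above 0. The comparisons share groups, so that these counts are not separate observations. The groups did not overlap for 2 markers, Aif1 and Trem2, in MRL/lpr against MRL/+ (23.9% of all genes), for 0 in Fn14ko against MRL/+ (13.5%) and for 3, Aif1, Trem2 and Ctss, in MRL/lpr against Fn14ko (20.3%).

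**Figure D2:**
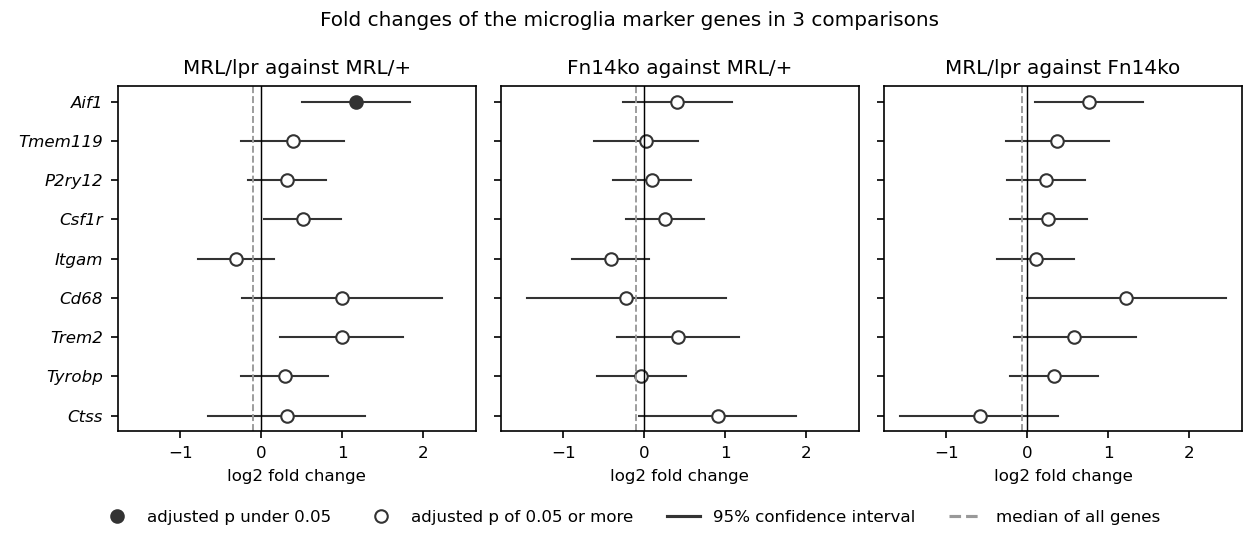
Log2 fold change of each microglia marker gene in the 3 comparisons, with its 95% confidence interval from limma. Filled points have an adjusted p under 0.05, which holds only for Aif1 in MRL/lpr against MRL/+ (1.17), and the dashed line is the median of all genes.

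Aif1 was the marker with the clearest difference. Its signals were 1.66, 2.52, 2.27 and 2.11 in MRL/lpr replicates 1 to 4, 1.25, 1.32, 1.17 and 1.26 in Fn14ko, and 1.29, 0.811, 1.32 and 0.562 in MRL/+. Every MRL/lpr mouse was above every mouse of the other groups. The log2 fold change over MRL/+ was 1.17 ± 0.31 (SE, n = 4 mice per group), or 2.25-fold, with an adjusted p of 0.0271 by limma. Over Fn14ko it was 0.76 ± 0.31 with an adjusted p of 0.21, and between Fn14ko and MRL/+ it was 0.41 ± 0.31 with an adjusted p of 0.397.

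The size of the Aif1 difference from MRL/+ rested in part on the 2 MRL/+ mice in Cy5. Their Aif1 signals, 0.811 and 0.562, lay near the dark spots of their channels, at 0.663 and 0.823, and the probe was not called well above background in either. The part of these channels in the result was not tested. Without these 2 mice the log2 fold change was 0.61 with an adjusted p of 0.163, and among the Cy3 mice alone it was 0.57 with an adjusted p of 0.115. In Cy3, MRL/lpr had 1.66 and 2.27, MRL/+ 1.29 and 1.32, and Fn14ko 1.25 and 1.17, so that both MRL/lpr mice were above the others there too. The log2 fold change over Fn14ko among the Cy3 mice was 0.68 (adjusted p = 0.11). The call was also lost without MRL/+ replicate 4, where the log2 fold change was 0.89 (adjusted p = 0.141). It was lost at about the same size without the second MRL/lpr array, at 1.12 (adjusted p = 0.0689), and without Fn14ko replicate 2, at 1.17 (adjusted p = 0.054).

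Trem2 and Tyrobp encode a receptor for lipids and apoptotic cells and its signaling adaptor. Trem2 signals were 2.67, 4.36, 2.95 and 2.60 in MRL/lpr, 2.28, 2.08, 2.16 and 1.74 in Fn14ko, and 1.94, 1.29, 2.55 and 0.873 in MRL/+. All 4 MRL/lpr mice were above all 8 others, the lowest MRL/lpr mouse by little over the highest MRL/+ mouse. The log2 fold change over MRL/+ was 1.00 ± 0.35 and did not pass the threshold (adjusted p = 0.071), nor did that over Fn14ko, 0.58 ± 0.35 (adjusted p = 0.41). The lowest Trem2 signals again belonged to the MRL/+ mice in Cy5, that of replicate 4, 0.873, near its dark spots of 0.823, and without them the log2 fold change over MRL/+ was 0.45 with an adjusted p of 0.472.

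Tyrobp did not follow Trem2 in size. Its signals were 1.81, 2.59, 2.00 and 2.69 in MRL/lpr, 1.86, 1.24, 1.79 and 2.47 in Fn14ko, and 1.68, 1.61, 1.97 and 2.11 in MRL/+. The groups overlapped in each comparison. The log2 fold changes were 0.29 in MRL/lpr against MRL/+ (95% interval -0.25 to 0.83), -0.04 in Fn14ko against MRL/+ (-0.58 to 0.51) and 0.33 in MRL/lpr against Fn14ko (-0.21 to 0.87).

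Csf1r encodes the receptor for the growth factors CSF1 and IL-34. Its averaged signals were 4.94, 6.87, 4.87 and 5.44 in MRL/lpr, 4.36, 4.93, 4.18 and 4.90 in Fn14ko, and 3.42, 3.07, 5.21 and 3.92 in MRL/+. Csf1r had a log2 fold change of 0.52 ± 0.22 in MRL/lpr against MRL/+ (adjusted p = 0.118; 0.25 without the MRL/+ Cy5 mice), and one of 0.26 ± 0.22 against Fn14ko (adjusted p = 0.607). This average was 89% the signal of 1 of its 3 probes.

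The 3 Csf1r probes pointed in different directions. The bright probe A_55_P2025078 had means of 15.3, 12.3 and 9.82 in the MRL/lpr, Fn14ko and MRL/+ mice, with a log2 fold change of 0.66 in MRL/lpr against MRL/+ (adjusted p = 0.0823 over all probes). The probe A_52_P602091 had means of 0.569, 0.609 and 0.915 in the same order, with a log2 fold change of -0.65 (adjusted p = 0.0592) and no overlap between MRL/lpr and MRL/+. The probe A_55_P2025073 had means of 0.713, 0.868 and 0.973, with a log2 fold change of -0.43 (adjusted p = 0.143). In MRL/+ replicate 4 the probe A_52_P602091, at 0.611, was below the dark spots of 0.823 and not well above background. Without the MRL/+ Cy5 mice the bright probe was at 0.36 (adjusted p = 0.479), A_52_P602091 at -0.71 (adjusted p = 0.179) and A_55_P2025073 at -0.36 (adjusted p = 0.451). Among the Cy3 mice alone, whose dark spots ran from 0.046 to 0.338, A_52_P602091 was lower in MRL/lpr at -0.87 with an adjusted p of 0.0239, while the bright probe was at 0.33 with an adjusted p of 0.554. With the probes averaged on the log2 scale instead, Csf1r was at -0.14.

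Tmem119 and P2ry12 are the 2 homeostatic markers, found in microglia and hardly in other macrophages. Tmem119 signals were 2.47, 5.68, 2.69 and 2.52 in MRL/lpr, 2.86, 2.51, 2.40 and 1.98 in Fn14ko, and 2.10, 2.38, 2.42 and 2.67 in MRL/+. Apart from MRL/lpr replicate 2, all 11 mice lay between 1.98 and 2.86. Between MRL/lpr and MRL/+ the log2 fold change was 0.39 ± 0.30 (adjusted p = 0.35) with all mice and 0.09 without replicate 2 of MRL/lpr.

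P2ry12 signals were 1.22, 1.5, 2.20 and 2.15 in MRL/lpr, 1.78, 1.41, 1.59 and 1.15 in Fn14ko, and 1.35, 1.34, 1.47 and 1.32 in MRL/+. The MRL/+ mice were close together, and the MRL/lpr mice lay on both sides of them. MRL/lpr differed from MRL/+ by a log2 fold change of 0.32 (95% interval -0.16 to 0.80), and -0.02 when the second MRL/lpr array, which held the 2 higher mice, was left out. Neither homeostatic gene was lower in MRL/lpr than in MRL/+ or Fn14ko past the threshold.

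Itgam was carried by the probe with the CA run, which held 98.8% of the averaged signal. The signals of this probe, A_55_P1977934, were 29.9, 40.4, 33.0 and 43.5 in MRL/lpr, 30, 51.8, 27.2 and 30.7 in Fn14ko, and 36.2, 55.2, 46.5 and 42.8 in MRL/+. The groups overlapped, and the log2 fold change in MRL/lpr against MRL/+ was -0.30 (adjusted p = 0.335). It cannot be told from these signals how much of them came from Itgam and how much from other transcripts with CA repeats.

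The second Itgam probe, A_55_P1977929, gave a lower signal in MRL/lpr than in MRL/+. Its signals were 0.299, 0.333, 0.306 and 0.374 in MRL/lpr, 0.472, 0.330, 0.284 and 0.251 in Fn14ko, and 0.573, 0.757, 0.578 and 1.07 in MRL/+. All 8 MRL/lpr and Fn14ko mice were below all 4 MRL/+ mice. The log2 fold change in MRL/lpr against MRL/+ was -1.14 ± 0.30 (adjusted p = 0.0246), that in Fn14ko against MRL/+ was -1.15 ± 0.30 (adjusted p = 0.0785), and that in MRL/lpr against Fn14ko was 0.01 ± 0.30 (adjusted p = 0.992).

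In the MRL/+ Cy5 mice this probe also lay near the dark spots of its channels. In MRL/+ replicates 2 and 4 the dark spots were at 0.663 and 0.823, and the probe at 0.757 and 1.07 was not called well above background. Without these 2 mice the log2 fold change was -0.79 with an adjusted p of 0.218, and their part in the result was not tested. Among the Cy3 mice alone it was -0.93 (adjusted p = 0.123 by limma), and there the probe was called well above background in both MRL/+ mice. The remaining Itgam probe, A_55_P1977926, was dim in 3 samples and did not pass the filter. It was called well above background in 0 MRL/lpr, 2 Fn14ko and 1 MRL/+ mice, at signals of 0.0720 to 0.529.

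Counted by probe, 1 of the 13 retained probes was higher (Aif1) and 1 lower (Itgam A_55_P1977929) in MRL/lpr than in MRL/+, where 15% of all 22419 probes passed the threshold. In Fn14ko against MRL/+ no marker probe passed, where 1.09% of all probes did, and in MRL/lpr against Fn14ko none passed, where 4.03% did. At an unadjusted p under 0.05, limma gave 7, 3 and 2 of the 13 marker probes in these comparisons, and 35.8%, 23% and 17.3% of all probes. Without the MRL/+ Cy5 mice, none of the 13 passed in any comparison, with a lowest adjusted p of 0.0934.

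**Figure D3:**
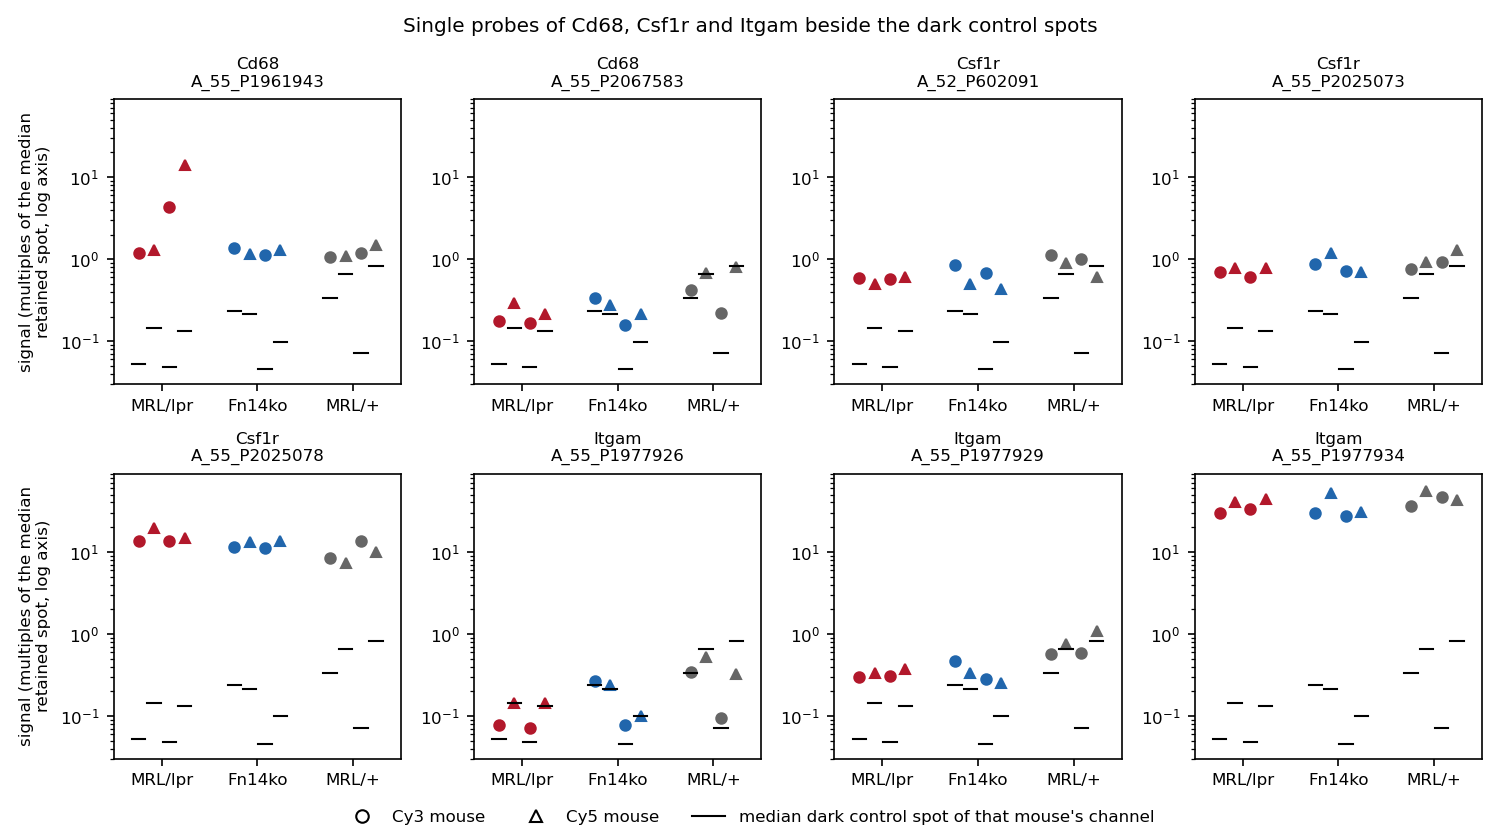
Signal of each probe of Cd68, Csf1r and Itgam in each mouse (log axis), beside the median dark control spot of that mouse's channel, drawn as a short bar. Circles are Cy3 mice and triangles are Cy5 mice; the dim probes of Cd68 and Itgam lie near the bars in the MRL/+ Cy5 mice, at 0.663 and 0.823, and Cd68 A_55_P1961943 is at 4.32 and 13.9 in 2 MRL/lpr mice.

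Cd68 encodes a glycoprotein of lysosomes and endosomes that is abundant in phagocytes. Its signal stood out in 2 MRL/lpr mice of 1 array. By the probe A_55_P1961943, signals were 1.18, 1.31, 4.32 and 13.9 in MRL/lpr replicates 1 to 4, 1.36, 1.15, 1.12 and 1.29 in Fn14ko, and 1.08, 1.10, 1.18 and 1.48 in MRL/+. The other 10 mice thus lay between 1.08 and 1.48, while the 2 mice of the second MRL/lpr array were far above them. The log2 fold change in MRL/lpr against MRL/+ was 1.37 ± 0.61 (adjusted p = 0.126) with all mice and 0.05 (adjusted p = 0.895) without the second MRL/lpr array.

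The other Cd68 probe, A_55_P2067583, did not show the high signals. It was at 0.174, 0.292, 0.166 and 0.217 in MRL/lpr, 0.335, 0.278, 0.158 and 0.212 in Fn14ko, and 0.426, 0.673, 0.221 and 0.809 in MRL/+. MRL/lpr replicates 3 and 4, the 2 mice with the high signals, were thus not high by this probe. The highest signals here, 0.673 and 0.809, were those of the MRL/+ Cy5 mice, close to the dark spots of their channels, and the log2 fold change in MRL/lpr against MRL/+ was -1.20 ± 0.42 (adjusted p = 0.0702), and -0.73 (adjusted p = 0.447) without these 2 mice. Averaged over both probes, of which A_55_P1961943 held 88.5%, Cd68 was at 1.00 ± 0.57 (adjusted p = 0.217).

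The 2 MRL/lpr arrays were compared for all genes to place the Cd68 difference. Cd68 was higher on the second array by 2.43 on the log2 scale, and 145 of the 17302 genes, Cd68 included, differed by at least as much in that direction. Among the other markers the difference ran from -0.53 for Tmem119 to 0.68 for P2ry12, and it was 0.10 for Aif1 and -0.30 for Trem2. None of the other 8 markers showed a difference of that size.

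Ctss encodes cathepsin S, a lysosomal protease that cleaves the invariant chain during antigen presentation. Its signals were 2.12, 3.77, 3.06 and 2.70 in MRL/lpr, 3.85, 3.79, 4.16 and 5.61 in Fn14ko, and 3.45, 1.64, 4.16 and 1.17 in MRL/+. All 4 Fn14ko mice were above all 4 MRL/lpr mice, by a small gap, with a log2 fold change in MRL/lpr against Fn14ko of -0.59 ± 0.45 that did not pass the threshold (adjusted p = 0.548). The 2 MRL/+ mice in Cy3 were at 3.45 and 4.16 and those in Cy5 at 1.64 and 1.17. Against MRL/+, MRL/lpr was at 0.32 with all mice and at -0.57 among the Cy3 mice alone, so that no direction can be given. With the probes of a gene averaged, Ctss was the single marker with a higher mean in Fn14ko than in MRL/lpr. Among the retained single probes, Csf1r A_52_P602091 and A_55_P2025073, Cd68 A_55_P2067583 and Itgam A_55_P1977929 also had the higher mean in Fn14ko.

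Exact permutation tests of the difference in mean log2 signal were run for the 9 markers in the 3 comparisons, 27 tests in all, each over the 70 divisions of 8 mice into 4 and 4. The smallest 2-sided p that these can give is 0.0286. It was reached in 5 tests, those of the markers whose groups did not overlap: Aif1 and Trem2 in both comparisons of MRL/lpr, and Ctss against Fn14ko. These p are not adjusted for the number of tests, and the tests take no account of the shared arrays or of the dyes. Over all genes, groups did not overlap for 23.9% in MRL/lpr against MRL/+ and for 20.3% in MRL/lpr against Fn14ko.

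The markers did not move as 1 block across the 12 mice. When the dye difference was removed and each marker standardised, the mean of the 9 profiles was highest in MRL/lpr replicates 2, 4 and 3, at 1.05, 0.91 and 0.61, and lowest in MRL/+ replicates 4 and 2, at -0.81 and -0.72. The latter 2 were the Cy5 mice with the bright dark spots, and MRL/+ replicates 1 and 3 were at -0.4 and 0.27. MRL/lpr replicate 1, at -0.26, lay with the Fn14ko mice, which were between -0.27 and 0.04. Over the 12 mice, the correlation of a marker with this mean was 0.902 for Aif1, 0.895 for Trem2 and 0.823 for Csf1r, 0.421 for Ctss and -0.05 for Itgam. Each marker is part of the mean, and the mice share groups, arrays and dyes, so that these values describe the 12 mice only. The 3 other genes with the most similar profile were Tln2 (r = 0.909), S100a13 (r = 0.909) and a transcript listed as ENSMUST00000121713.1 (r = 0.901). Their mean signals in MRL/lpr, Fn14ko and MRL/+ were 2.37, 1.99 and 1.98 for Tln2 and 6.37, 5.00 and 3.88 for S100a13.

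Other microglia genes were examined as a list of 26, of which 24 were tested. In MRL/lpr against MRL/+, 1 was higher and 0 were lower, where 14.4% of all genes passed. Of the 24, 10 had log2 fold changes above 0, and the median was -0.09. Against Fn14ko, 1 was higher and 0 were lower in MRL/lpr, where 4.57% of all genes passed, and the median was 0.02. In neither comparison was 1 in 24 above the share over all genes. In Fn14ko against MRL/+ limma called 0, beside 0.954% of all genes, with 3 at an unadjusted p under 0.05, beside 21.9%. Over all genes the medians of these comparisons were -0.10, -0.07 and -0.10.

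The gene called in this list was Siglech, a sialic acid-binding lectin of microglia and plasmacytoid dendritic cells. Its signals were 11.5, 11.9, 11.6 and 12.9 in MRL/lpr, 2.15, 2.02, 3.80 and 3.10 in Fn14ko, and 4.00, 4.18, 8.46 and 7.36 in MRL/+. The groups did not overlap in any of the 3 pairs. Siglech was higher in MRL/lpr than in Fn14ko by 2.16 on the log2 scale (adjusted p = 0.00141) and higher than in MRL/+ by 1.08 (adjusted p = 0.0263), and Fn14ko against MRL/+ was at -1.09 (adjusted p = 0.0842). Of its 3 probes, 2 gave the higher signal to MRL/lpr over MRL/+, at 1.61 (adjusted p = 0.0141) and 1.08 (adjusted p = 0.041), and the third was at 0.02. Against Fn14ko the same 2 probes were higher in MRL/lpr, at 1.64 (adjusted p = 0.0256) and 2.34 (adjusted p = 0.00166), and the third was at -0.27. The gene's value in Fn14ko against MRL/+ rested on 1 probe, at -1.26, with the others at -0.03 and 0.29. Without the MRL/+ Cy5 mice, Siglech was at 1.06 over MRL/+ (adjusted p = 0.106) and at 2.16 over Fn14ko (adjusted p = 0.00458).

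The ligands of CSF1R and the signaling partners of TREM2 and TYROBP, 8 genes with 7 tested, had none past the limma threshold in any comparison, and 1, 1 and 2 at an unadjusted p under 0.05. In MRL/lpr against MRL/+, 3 of the 7 were above 0, with a median of -0.10 and a range from -0.62 to 0.52. Il34 and Csf1, the ligands of CSF1R, were the brightest of the 7 on average. The mean Il34 signal of MRL/lpr was 6.46 ± 0.607 (SD, n = 4), above 4.52 ± 0.628 for Fn14ko and 4.51 ± 0.361 for MRL/+, with log2 fold changes in MRL/lpr of 0.52 over MRL/+ (adjusted p = 0.0613) and 0.52 over Fn14ko (adjusted p = 0.115). Csf1 was at 0.04 in MRL/lpr against MRL/+. By limma it was at 0.44 in Fn14ko against MRL/+ (adjusted p = 0.197) and at -0.40 in MRL/lpr against Fn14ko (adjusted p = 0.267). Of 20 genes that activated microglia raise, 16 were tested. Of these, 0 were higher and 1, Gpnmb, was lower in MRL/lpr than in MRL/+, where 14.4% of all genes passed, and the median was -0.24. Gpnmb was well above background in 0 MRL/lpr mice and in 2 MRL/+ mice, so that no fold is given (adjusted p = 0.032). Its signals in MRL/+ were 0.381 and 0.134 in Cy3 and 0.777 and 1.04 in Cy5, the latter near the dark spots of 0.663 and 0.823, and without the Cy5 mice the adjusted p was 0.266. In the other comparisons of this list limma called 0, with 2 in Fn14ko against MRL/+ and 3 in MRL/lpr against Fn14ko at an unadjusted p under 0.05.

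Markers of other cells were set beside these results. Border macrophage genes (6 of 8 tested) and lymphocyte genes (4 of 11) had none past the limma threshold in any comparison. At an unadjusted p under 0.05 there were 0 border macrophage genes in each comparison, and 0, 1 and 1 lymphocyte genes. In MRL/lpr against MRL/+, 3 of 6 border macrophage genes were above 0, with a median of -0.01 and a range from -0.91 to 0.88. The brightest of them were F13a1 at 0.88 (adjusted p = 0.242 by limma) and Stab1 at 0.40. F13a1 signals ran from 0.31 to 1.84 in the MRL/lpr mice. Of 4 lymphocyte genes 1 was above 0, with a median of -0.20. The brightest of these were Cd4 at 0.13 and Cd3e at -0.27. Only 1 of the 11 Cd4 spots passed the filter. The monocyte and neutrophil genes Ccr2 and Ngp were well above background in no mouse. Of 3 such genes tested, 1, Chil3, was lower in MRL/lpr than in MRL/+, at -1.27 (adjusted p = 0.017), where 14.4% of all genes passed. In the MRL/+ Cy5 mice Chil3, at 0.770 and 0.456, was not well above background, with dark spots of 0.663 and 0.823, and without them it was at -1.37 (adjusted p = 0.0727). The summed signal of the 3 monocyte and neutrophil genes was 0.574 to 1.01 in MRL/lpr, 0.802 to 1.69 in Fn14ko and 0.99 to 1.96 in MRL/+. Each of the 3 was well above background in only 2 MRL/+ mice, so that the MRL/+ sums include signals not well above background.

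Genes of blood, myelin, choroid plexus, neurons and vessels were read against the 14.4% of all genes that passed in MRL/lpr against MRL/+, where 1 of 3 erythrocyte, 1 of 6 oligodendrocyte, 1 of 8 choroid plexus, 1 of 6 neuron and 1 of 5 endothelial genes passed. The summed signal of 3 erythrocyte genes was 91.3 to 230 in MRL/lpr, 32.9 to 95.2 in Fn14ko and 24.3 to 46.8 in MRL/+, and Hba-a1 was higher in MRL/lpr than in MRL/+ by 2.37 on the log2 scale (adjusted p = 0.00456). Over the 3 genes, log2 fold changes ran from 0.42 to 2.37 in that comparison, and from -1.02 to 1.04 in Fn14ko against MRL/+. The sum was mostly Hba-a1, with means of 158.8, 65.06 and 29.95 in MRL/lpr, Fn14ko and MRL/+. Of 6 oligodendrocyte genes, 0 had a log2 fold change above 0 in MRL/lpr against either group, with Mbp lower than in MRL/+ (adjusted p = 0.011) and Cnp and Mobp lower than in Fn14ko (adjusted p = 0.0273 and 0.0361). Against Fn14ko, 2 of 6 oligodendrocyte and 1 of 8 choroid plexus genes thus passed, beside 4.57% of all genes. The 2 retained Mbp probes were at -1.75 (adjusted p = 0.0126) and -0.75 (0.258) against MRL/+, and at -1.32 and 0.37 against Fn14ko. The 3 Mobp probes were at -1.28 (adjusted p = 0.0191), -1.16 (0.115) and -0.90 (0.39) against Fn14ko. The summed signal of 8 choroid plexus genes was 21.4 to 156 in MRL/lpr, 32.2 to 293 in Fn14ko and 31.4 to 308 in MRL/+, and Clic6 was lower in MRL/lpr than in MRL/+, at -2.51 (adjusted p = 0.0486), and lower than in Fn14ko, at -2.96 (adjusted p = 0.0494). The choroid plexus sums overlapped between all groups. Of the 6 neuron genes 3 were above 0 in MRL/lpr against MRL/+, with a median of -0.02, and Slc17a7 was lower at -1.08 (adjusted p = 0.00926). Of the 5 endothelial genes 3 were above 0, with a median of 0.31 and a range from -0.89 to 1.07, and Flt1 was higher at 1.07 (adjusted p = 0.00761). In the other comparisons limma called 0 neuron and 0 endothelial genes, with 2 and 2 at an unadjusted p under 0.05 in Fn14ko against MRL/+ and 1 and 1 in MRL/lpr against Fn14ko. Without the MRL/+ Cy5 mice, Mbp (adjusted p = 0.0436) and Flt1 (0.014) still passed in MRL/lpr against MRL/+, and Hba-a1 (0.0742), Clic6 (0.341) and Slc17a7 (0.0671) did not. Against Fn14ko, Cnp (0.0372) still passed without them, and Mobp (0.12) and Clic6 (0.144) did not. The part of these differences in those of the microglia markers was not tested. Of 7 astrocyte genes none passed in any comparison, with 2, 0 and 1 at an unadjusted p under 0.05 by limma. In MRL/lpr against MRL/+, 3 of the 7 were above 0, with a median of -0.13 and a range from -0.58 to 0.68. The brightest, S100b and Slc1a3, were at 0.57 and 0.13 there.

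**Figure D4:**
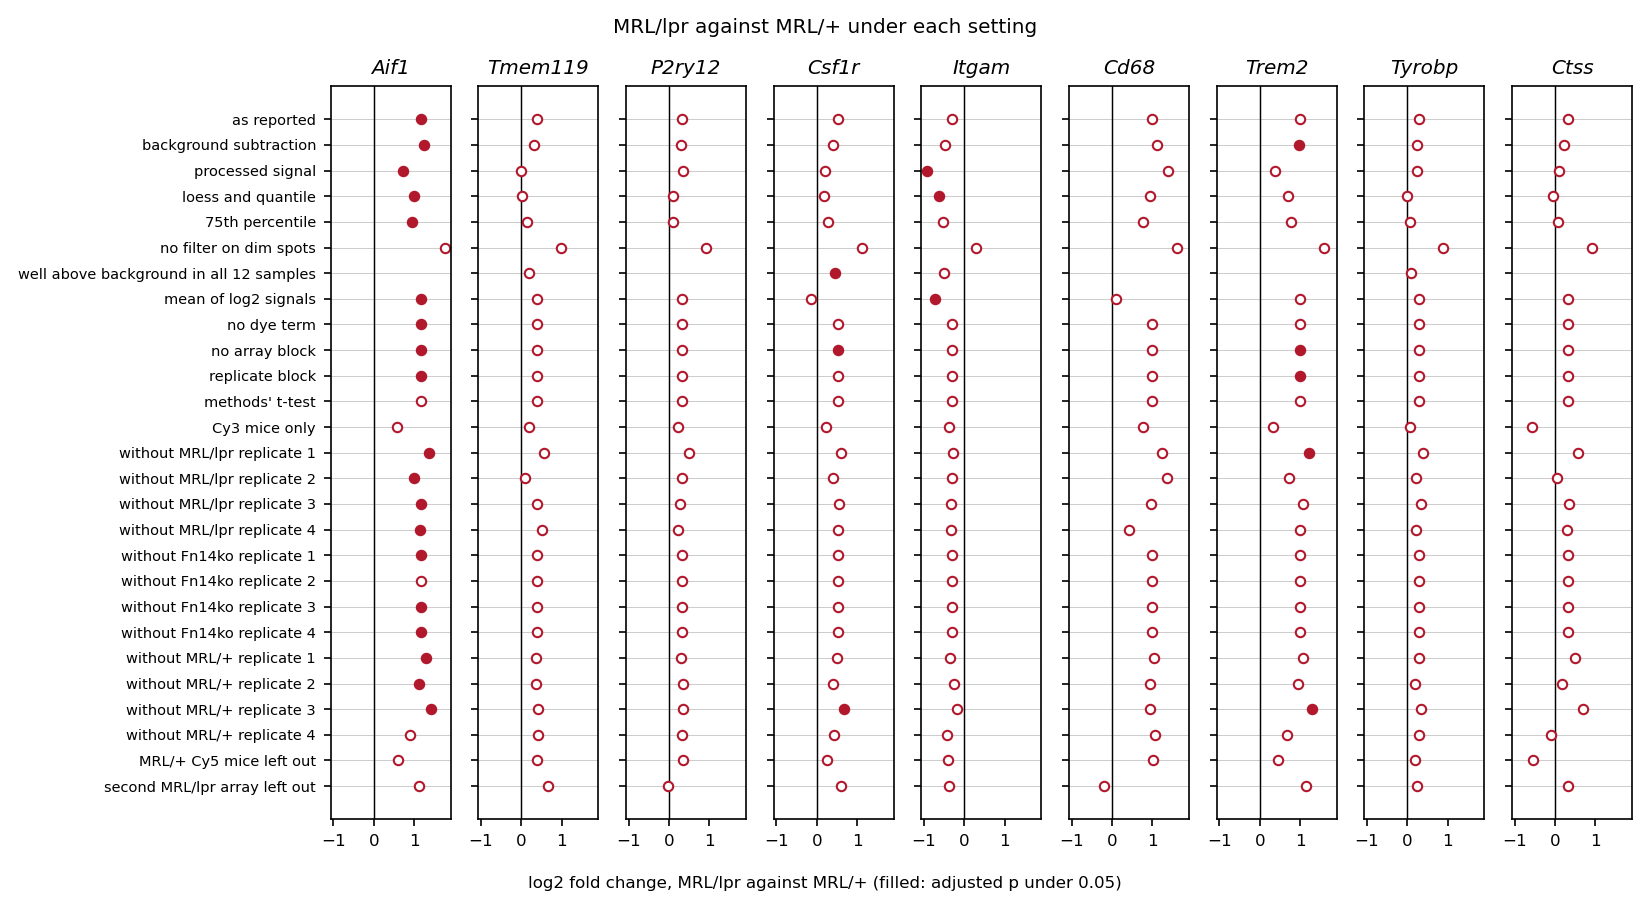
Log2 fold change of each microglia marker gene in MRL/lpr against MRL/+ as reported and under 26 other settings of the processing or of the mice used. Filled points have an adjusted p under 0.05 and gaps are genes not tested under that setting; Aif1 lies between 0.57 and 1.77 in all settings that tested it, while P2ry12, Csf1r, Itgam, Cd68, Tyrobp and Ctss each fall on both sides of 0 in at least 1 setting.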

How the data were processed

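The arrays were Agilent 2-colour mouse arrays. The deposited files hold the scanner intensity of each spot, as the authors' Feature Extraction software wrote it (version 12.1.0.3 per the file headers): mean foreground and median local background, which were used here, and a processed signal, used as an alternative. Probe coordinates are on mm9. Each channel was read as 1 mouse. Background was corrected by normexp (offset 50) in limma 3.58.1 under R 4.3.3. Of 44397 spots, 43020 were not controls. Spots marked as outliers or uneven (1952), and dim spots, whose foreground was less than 2 times the local background in at least 1 of 12 samples (17781), were not used, which kept 24255. A filter that asks for every sample can remove genes that are low in 1 group. Signals were scaled per channel to the median over those spots, the spots of a gene were averaged, and log2 signals were fitted in limma with group and dye as terms and the array as a random block (correlation 0.316). P-values were adjusted by Benjamini-Hochberg over all 17302 genes, or over 22419 single probes, with a threshold of 0.05. The limma procedure was tested on simulated data. The number of mice, 4 per group, limits the precision.

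The alternatives concerned the background correction, the signal, the normalization, the scaling, the filter, the merging of probes, the dye, array and replicate terms, the test and the mice used. Those without the MRL/+ Cy5 mice or the second MRL/lpr array, and those of single probes or of genes of the other lists, were chosen after seeing the data. The 9 genes and the other gene lists were chosen with earlier results of these data known. All 9 were described with every probe. From the other lists, counts were given, and at most 4 called genes with the lowest adjusted p were named, or the 2 brightest where none was called; the 3 genes of most similar profile were also named. Snap25 and Fn14 (Tnfrsf12a) were named outside this rule, as checks of the tissue and the genotype.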

Additional observations from a re-analysis of the deposited data

Results flagged for a closer look

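In 51 sets of 4 mice, each 1 group for 1 marker gene or probe, the gap between the highest or lowest mouse and its nearest neighbour was set against the whole range, and 3 sets had a gap above Dixon's 95% critical value for that share. Chance alone gives about 1 set in 20. Tmem119 in MRL/lpr replicate 2 was at 5.685, where the other 3 MRL/lpr mice were at 2.47 to 2.69. Itgam in Fn14ko replicate 2 was at 26.07, where the other 3 Fn14ko mice were at 13.8 to 15.5. The same mouse was at 51.8 for the Itgam probe with the CA run, A_55_P1977934, which holds 98.8% of that gene's signal, so that these 2 are 1 observation.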

How the results depend on the processing

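As reported, 1, 0 and 0 of the 9 markers passed the threshold in MRL/lpr against MRL/+, Fn14ko against MRL/+ and MRL/lpr against Fn14ko. In the first comparison the count was 2 with background subtraction, the processed signal, loess and quantile normalization or the mean of log2 signals, 3 with no array block, and 0 with no filter on dim spots, the methods' t-test, the Cy3 mice only, the MRL/+ Cy5 mice left out or the second MRL/lpr array left out. Leaving out 1 mouse at a time gave 0 to 3, with 0 without Fn14ko replicate 2 or MRL/+ replicate 4, and 3 without MRL/+ replicate 3. With the processed signal the count was 1 in each of the other comparisons. With the replicate block it was 2 in the first comparison, and 5597 genes in all against 2492; same-numbered mice correlated at 0.263 to 0.573 for number 2 and 0.281 to 0.721 for number 3, but at -0.132 to 0.215 for number 1 and -0.0276 to 0.214 for number 4, so that the numbers were not taken as pairs, and the labels give a number no shared origin. The cause of these changes was not tested.

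Aif1 in MRL/lpr against MRL/+ was above 0 in each setting that tested it, and so was Trem2; the filter on spots well above background in all 12 samples tested only Tmem119, Csf1r, Itgam and Tyrobp. Of the values of single markers under the alternatives, 627 kept their direction and their side of the threshold and 40 turned their direction. In MRL/lpr against MRL/+ these were Tyrobp (-0.01) and Ctss (-0.05) with loess and quantile normalization, Ctss with the Cy3 mice only (-0.57) or the MRL/+ Cy5 mice left out (-0.54) and over single mice left out (-0.09 to 0.69), Itgam with no filter (0.28), Csf1r with the mean of log2 signals (-0.14), and P2ry12 (-0.02) and Cd68 (-0.21) with the second MRL/lpr array left out. In MRL/lpr against Fn14ko they were Itgam with loess and quantile (-0.10) or no filter (-0.03), Tmem119 (-0.02) and P2ry12 (-0.04) with the Cy3 mice only, and P2ry12 with the second MRL/lpr array left out (-0.12). In Fn14ko against MRL/+ they were Tmem119 with background subtraction (-0.03), the processed signal (-0.12), loess and quantile (-0.22), the 75th percentile (-0.23), the filter on all 12 samples (-0.21) and over single mice left out (-0.10 to 0.15); Aif1 (-0.07), Trem2 (-0.14), Cd68 (0.15) and Tyrobp (0.04) with the processed signal; Aif1 (-0.11), Trem2 (-0.01) and Cd68 (0.02) with the Cy3 mice only; Aif1 (-0.15), Trem2 (-0.13) and Csf1r (-0.01) with the MRL/+ Cy5 mice left out; P2ry12 with loess and quantile (-0.02) or the 75th percentile (-0.15); Cd68 (0.51), Tyrobp (0.69) and Itgam (0.31) with no filter; Csf1r with the mean of log2 signals (-0.14); and Tyrobp over single mice left out (-0.17 to 0.19).

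Over all genes, MRL/lpr against MRL/+ gave 5140 calls with background subtraction, 5513 with loess and quantile, 22 with no filter, 5189 with no array block, 1320 with the methods' t-test, 1356 with the Cy3 mice only, 871 with the MRL/+ Cy5 mice left out and 1570 with the second MRL/lpr array left out. Of the 2492 calls reported, 1044 were higher, against 1468 of 5513 with loess and quantile and 708 of 2968 with scaling to the 75th percentile. In Fn14ko against MRL/+ the settings gave 0 (no filter, with 1683 at an unadjusted p under 0.05) to 2837 calls against 165, and in MRL/lpr against Fn14ko 32 to 3201 against 790. Leaving out 1 mouse gave 781 (MRL/+ replicate 4) to 5551 (MRL/+ replicate 3) calls in MRL/lpr against MRL/+. Scaling to the 75th percentile moved the median of all genes to -0.34 in that comparison and -0.35 in Fn14ko against MRL/+. In the MRL/+ Cy5 mice, the probes of Aif1, Itgam A_55_P1977929 and Cd68 A_55_P2067583 were not well above background in either mouse, and those of P2ry12, Trem2, Ctss, Csf1r A_52_P602091, Csf1r A_55_P2025073 and Cd68 A_55_P1961943 were not in replicate 4, which limits what can be said of low signals.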
